A study of Mus musculus with 6 samples.

Results

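The integrin and laminin chains were followed at the level of messenger RNA in mouse aortic smooth muscle with and without the microRNA miR-21. Genes were taken by symbol: every Itga, Itgb, Lama, Lamb and Lamc chain gene in the authors' table, which gave 35 genes (24 integrin and 11 laminin chains) of 22956. Itgad and Itgb6 were not analysed here. All 6 libraries were labelled as smooth muscle cells from the aorta of C57B6 mice that were 30 weeks old and had eaten a western diet, a fatty feed used to bring on atherosclerosis, for 20 weeks. The 3 knockout libraries carry the genotype label miR-21fl/flmTmG/Myh11ERT2 and the group label miR21 -/-, and the 3 WT libraries carry the genotype label WT/mTmG/ Myh11ERT2. Both genotypes therefore carry mTmG, a reporter that changes colour where Cre has acted, and an inducible Cre driven by the promoter of Myh11, the smooth muscle myosin heavy chain. The floxed gene can be lost only in cells where that promoter is or was active, and in their descendants. The labels used here do not describe the induction of the Cre. The labels do not state whether the libraries of a genotype came from separate animals, so p-values measure the spread between these samples, which may be technical.

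Integrins are receptors made of an alpha and a beta chain that span the cell membrane, bind proteins of the extracellular matrix outside and connect to actin inside. Laminins are trimers of an alpha, a beta and a gamma chain and form a sheet within the basement membrane, the thin matrix layer that surrounds each smooth muscle cell of the arterial wall. Contact with this layer is known for holding smooth muscle cells in their contractile state, while fibronectin and collagen are bound by other integrin pairs.

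miR-21 lowers messages whose 3′ untranslated region (UTR) pairs with its seed, bases 2 to 8. The mature sequence is shown with its seed in capitals, from RefSeq on GRCm38.p6, followed by every stretch in a 3′ UTR of these genes that matches the whole seed (ATAAGCT, in capitals, or ATAAGCTA where an A follows). The coordinates on mm10 are those of the capitals, and all sequences run 5′ to 3′ on the strand of the transcript. The sites are shown because miR-21 could pair with these messages there.
mmu-miR-21a-5p: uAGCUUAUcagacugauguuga
Itga1, chr13:114958799-114958805, minus strand: tctgctgtaacATAAGCTtgcagattgct
Itga1, chr13:114957302-114957309, minus strand: agacccctgacATAAGCTAcatattagaat
Itga4, chr2:79328731-79328737, plus strand: tagaattttatATAAGCTttaaaatgtag
Itgav, chr2:83803796-83803803, plus strand: cagttgacttcATAAGCTActgaagacttt
Itgb8, chr12:119160061-119160067, minus strand: agaaattgcccATAAGCTtcaagccaata

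Of the 35 genes, 4 integrins (11.4%) and 0 laminins held the 7-base match, against 8.09% of the 15346 genes of the table with an annotated 3′ UTR. The 8-base match was present in Itga1 and Itgav, 2 of the 35 genes (5.71%), against 2.34% of all genes. Laminin UTRs are short: their median length was 210 bases, against 1508.5 bases for the integrins and 1294 bases for all genes. The UTRs of Itga1, Itga4, Itgav and Itgb8, which hold the 7-base match, are long, at 6994, 6508, 3581 and 5095 bases. The shares above were not adjusted for UTR length. A further match, TAAGCTA without the base before it, stood in Itga1, Itga8, Itgav and Itgb8. A match describes the letters of the UTR and does not show that the site is used.

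Library totals ranged from 37787465 to 72277179 estimated counts in the knockout libraries and from 37996254 to 154384307 in the WT libraries, a ratio of 4.09 between the deepest and the shallowest. Levels below are CPM, a gene's share of its library's counts, scaled by the trimmed mean of M-values (TMM). The level of miR-21 itself was not analysed here, so its loss could not be checked in these libraries. All 10 smooth muscle markers were detected, and their summed level was 30125 to 39388 CPM in knockout libraries and 25261 to 37549 CPM in WT libraries. Of 16654 genes tested, 0 passed an adjusted p of 0.05 by edgeR's quasi-likelihood test (0.0% called), where the smallest adjusted p was 0.217. DESeq2 called 63 genes higher (0.378%) and 12 lower (0.0721%) in the knockout.

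Of the 35 integrin and laminin genes, 27 passed the filter on low counts, 18 integrins and 9 laminins. None of the 27 passed the edgeR threshold. The log2 fold change, knockout over WT, was above 0 for 18 of the 27 and below 0 for 9, with a median of 0.051. Over all genes tested, 49.4% were above 0 and the median was -0.0022. Lama5 and Lamb2, 2 of the 27, had an unadjusted edgeR p under 0.05 and were higher in the knockout, against 3.95% of all genes tested. None of the 27 was lower at that threshold, against 2.01% of all genes. The lowest knockout library exceeded the highest WT library for 4 of the 27, among them Lama5, Lamb2 and Lamc1, against 6.54% of all genes, and for none did every knockout library lie below, against 5.58%. DESeq2 called 1 of the 27 higher, Lama5, and none lower. The median log2 fold change was 0.21 over the 9 laminins, 7 of them above 0, and 0.042 over the 18 integrins, 11 of them above 0. With upper-quartile scaling, Lama2 and Itgb5, which lie close to 0, turned below it. In this bulk RNA, fewer cells of a type and less RNA per cell cannot be told apart.

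**Figure D1:**
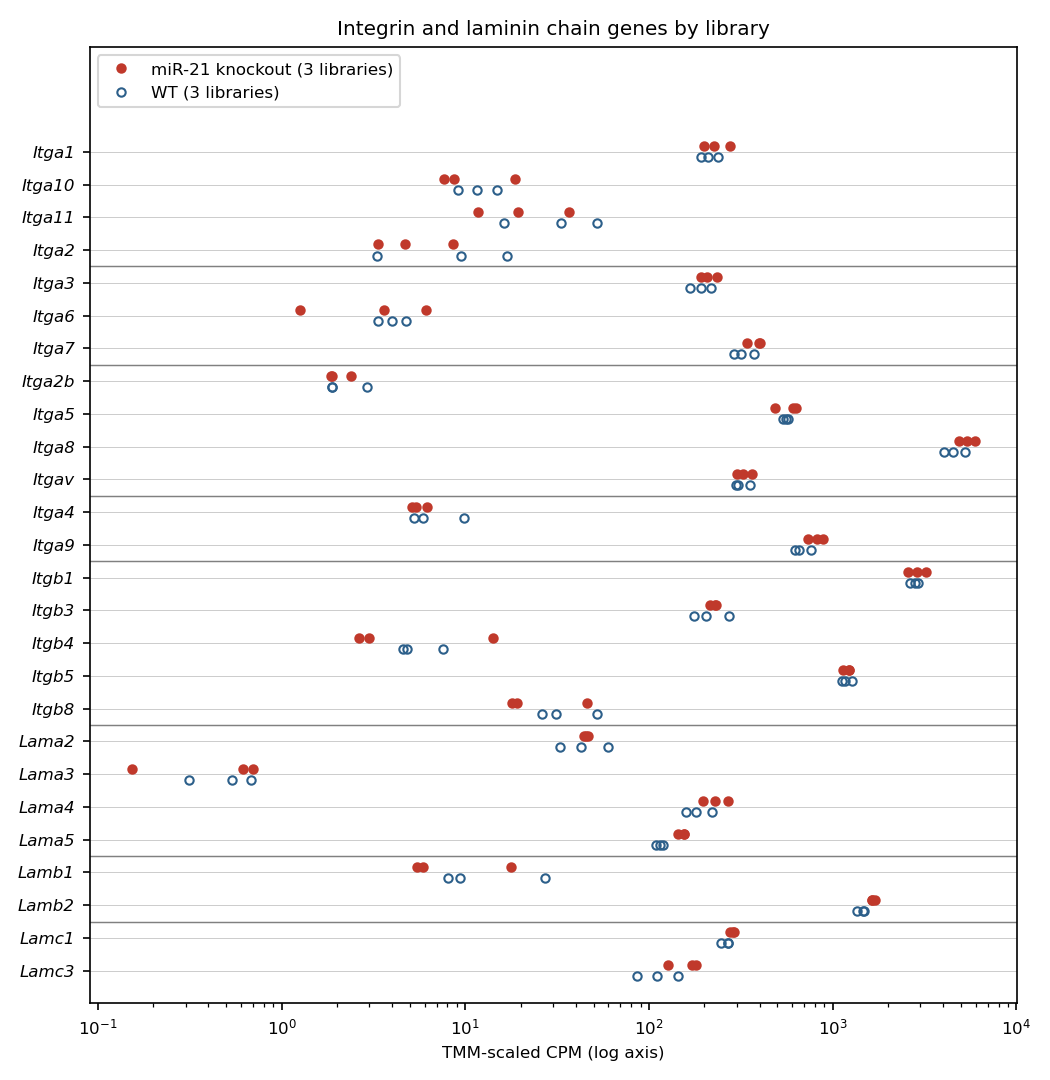
TMM-scaled CPM on a log axis for 26 of the tested integrin and laminin genes, grouped by role, with knockout libraries as filled points above the open points of the WT libraries (3 each). Lama5 and Lamb2 have separate groups, while the highest library of Itgb4, Itga2 and Lamb1 is about 5 times the lowest and the genotypes overlap.

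**Figure D2:**
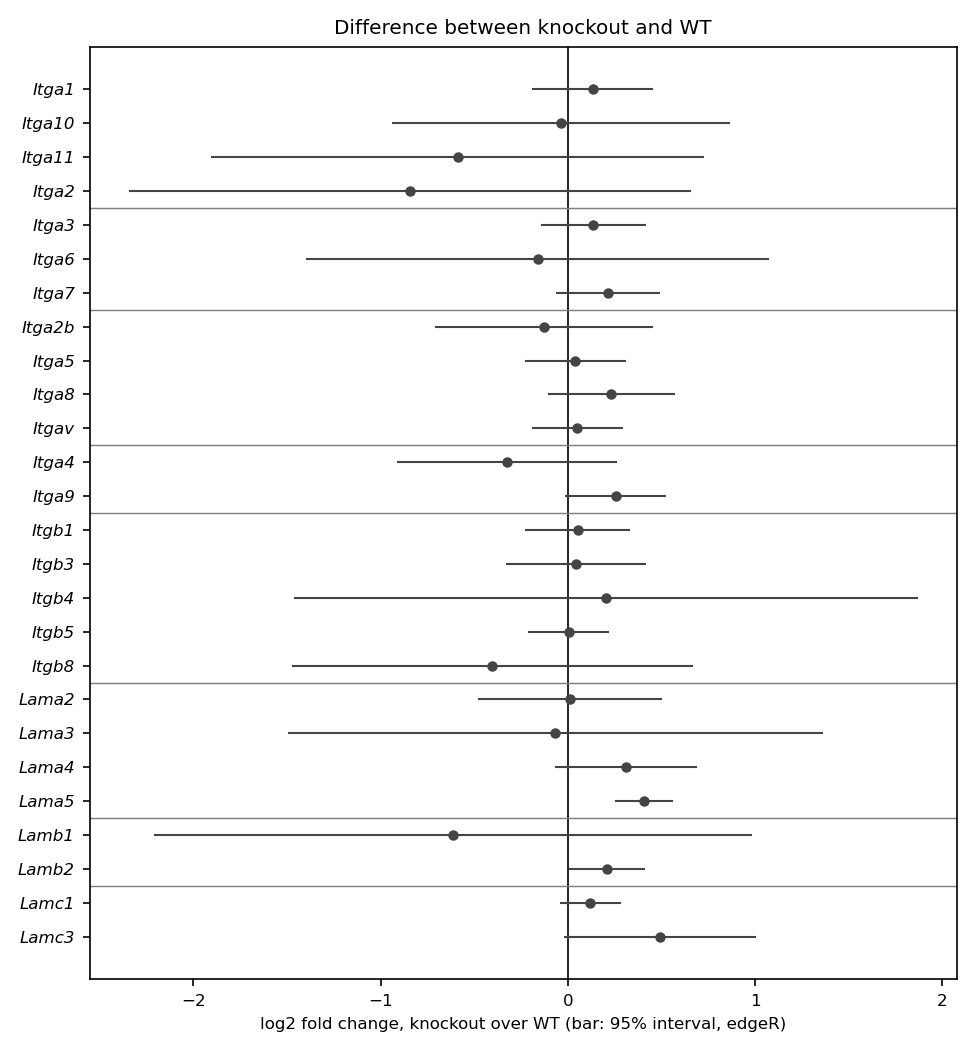
Log2 fold change of knockout over WT for the same 26 genes, with the 95% interval of the edgeR fit as bars and the same order of roles. The intervals of Lama5 (0.25 to 0.56) and Lamb2 lie above 0, and those of the other genes shown include 0.

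Laminin alpha chains carry the part of the trimer that binds receptors. Lama5, the chain found in the basement membranes of endothelium, epithelium and mature smooth muscle, is transcribed from the minus strand of chromosome 2 between 180176373 and 180225859 (mm10). Its level was 154.5, 143 and 156 CPM in the knockout libraries, against 109.9, 119 and 114.2 CPM in the WT libraries. The lowest knockout library lay above the highest WT library, and the spread within each genotype was small. Means were 151 ± 6.96 CPM in knockout and 114.2 ± 4.34 CPM in WT (SD, n = 3 per genotype), a difference of 32.5%. This is a log2 fold change of 0.41 ± 0.065 (SE), for which edgeR gave a p of 0.000423 before and 0.440 after adjustment, and DESeq2 an adjusted p of 9.00e-05. Across the alternatives its adjusted p ran from 9.00e-05 with DESeq2 to 0.999, with edgeR or limma-voom never under 0.05. Its unadjusted p stayed under 0.05 under all 14 alternatives, and leaving out any 1 library left the log2 fold change between 0.38 and 0.44. No annotated exon of another gene overlapped its exons.

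Lama4, a chain of endothelial and muscle basement membranes, had 196, 269.8 and 229 CPM in knockout and 158, 221 and 180.4 CPM in WT. The groups overlapped: knockout 1 lay below WT 2. Its log2 fold change was 0.31 ± 0.16 (edgeR adjusted p 0.859). The 6 libraries fell in the same order for Lama4 and for the integrin gene Itga8, from knockout 2 and knockout 3 at the top to WT 3 and WT 1 at the bottom. The summed smooth muscle markers likewise were highest in knockout 2 and lowest in WT 1, and their part in the result was not tested. Lama2, the alpha chain best known from skeletal muscle, averaged 45.3 ± 1.00 CPM in knockout and 45.02 ± 13.8 CPM in WT (SD, n = 3 per genotype), a log2 fold change of 0.011 ± 0.20. The 3 knockout libraries were nearly equal for Lama2 and lay inside the WT range. Lama3, an epithelial chain, was measured at 0.153 to 0.697 CPM across the 6 libraries, with a log2 fold change of -0.066 ± 0.60.

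Lamb2 was the most abundant laminin message per kilobase and lies on chromosome 9 from 108479736 to 108490530. It encodes the beta chain of vessel walls, the kidney filter and the neuromuscular junction. Its level was 1640.1, 1695 and 1637 CPM in knockout and 1359, 1484 and 1459 CPM in WT. The groups did not overlap, and the means were 1657 ± 32.7 CPM in knockout and 1434 ± 66.5 CPM in WT (SD, n = 3 per genotype), a difference of 15.6%. The log2 fold change was 0.21 ± 0.087, with an edgeR unadjusted p of 0.0469 and an edgeR adjusted p of 0.831 (DESeq2 adjusted p 0.190). Without any 1 of the 6 libraries, the unadjusted edgeR p of Lamb2 lay between 0.0596 and 0.118, while the log2 fold change stayed between 0.17 and 0.23. Lamb1, the other broadly used beta chain, behaved differently across libraries. It had 17.8, 5.47 and 5.88 CPM in knockout and 27.0, 8.10 and 9.32 CPM in WT, so that knockout 1 and WT 1 stood well above the other 4 libraries. Its log2 fold change was -0.61 ± 0.66, and it was -1.38 without knockout 1 and 0.15 without WT 1.

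Of the gamma chains, Lamc1, the one found in most laminins, had 286, 277 and 289.7 CPM in knockout and 269.6, 246 and 268 CPM in WT. Each knockout library lay above each WT library, but the gap between the nearest libraries was small beside the WT spread. The log2 fold change of Lamc1 was 0.12 ± 0.069 (edgeR adjusted p 0.859). Lamc3, a less widely used gamma chain, had 179.9, 127 and 171 CPM in knockout and 143, 111 and 85.6 CPM in WT. Knockout 2 lay below WT 1, so the groups overlapped. The log2 fold change of Lamc3 was 0.49 ± 0.21 (edgeR adjusted p 0.835), and it lay between 0.32 and 0.70 when 1 library was left out, lowest without WT 3. An annotated gene on the opposite strand, Gm13441, covers 6.27% of the Lamc3 exon bases, and the sources used here do not state whether counting used strand. The same limit holds, among others, for Itgb4, Itgav and Itga8, where opposite-strand genes cover 7.66%, 5.90% and 5.05% of the exon bases.

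**Figure D3:**
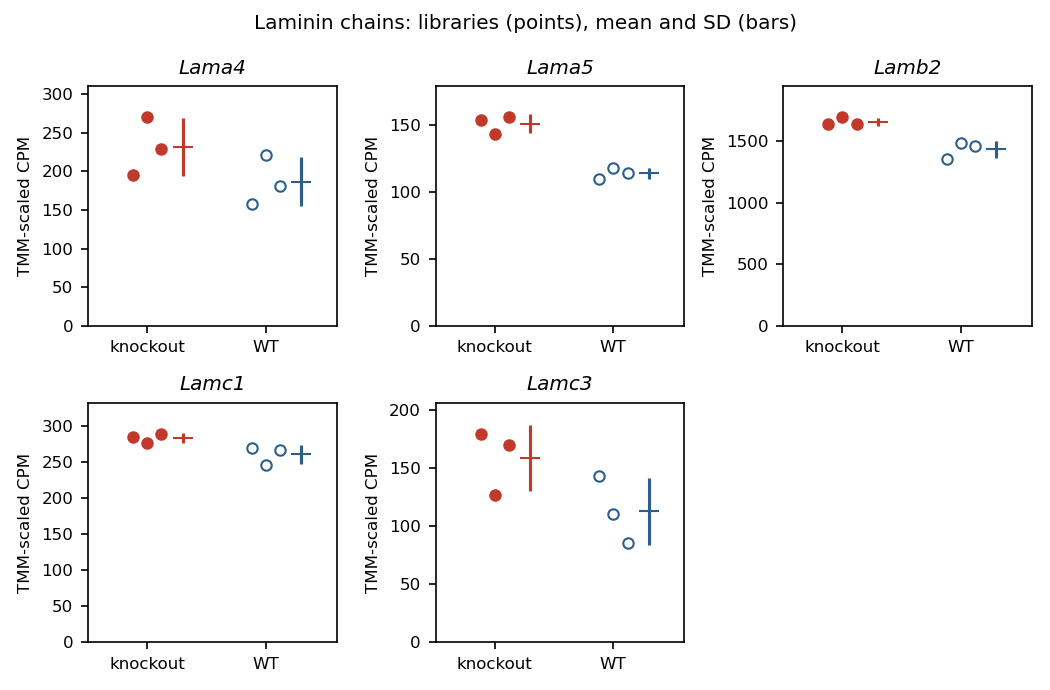
TMM-scaled CPM of 5 laminin genes in the knockout and WT libraries, as points, with mean and SD as bars beside them (3 libraries each). Lama5, Lamb2 and Lamc1 show no overlap between the genotypes, and Lama4 and Lamc3 do.

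Levels of different chains were compared as CPM per kilobase of exon, summed within each class of chain. Lamb2 supplied 99.6 ± 0.259% of the laminin beta sum in knockout and 99.3 ± 0.485% in WT (SD, n = 3 per genotype, as for the other shares). Lama4 supplied 54.1 ± 4.85% of the alpha sum in knockout and 54.4 ± 5.01% in WT, and Lama5 37.8 ± 4.12% in knockout and 35.5 ± 1.46% in WT. Counted per longest transcript in place of all exons, the Lama5 share was 23.8% in knockout and 22.1% in WT, so its level beside Lama4 depends on the length used. Lamc1 supplied 56.1 ± 3.86% of the gamma sum in knockout and 62.2 ± 5.72% in WT, and Lamc3 42.2 ± 4.06% in knockout and 36.1 ± 5.87% in WT. For each of these 5 shares the libraries of the genotypes overlapped. The summed level of the alpha class was 35.3 CPM per kilobase in knockout and 28.3 in WT, that of the beta class 273 in knockout and 237 in WT, and that of the gamma class 61.5 in knockout and 51.0 in WT. In the alpha and beta classes the sum of every knockout library lay above that of every WT library, and in the gamma class they overlapped. These sums were not tested. Lamb2 was the main beta chain in all 6 libraries.

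**Figure D4:**
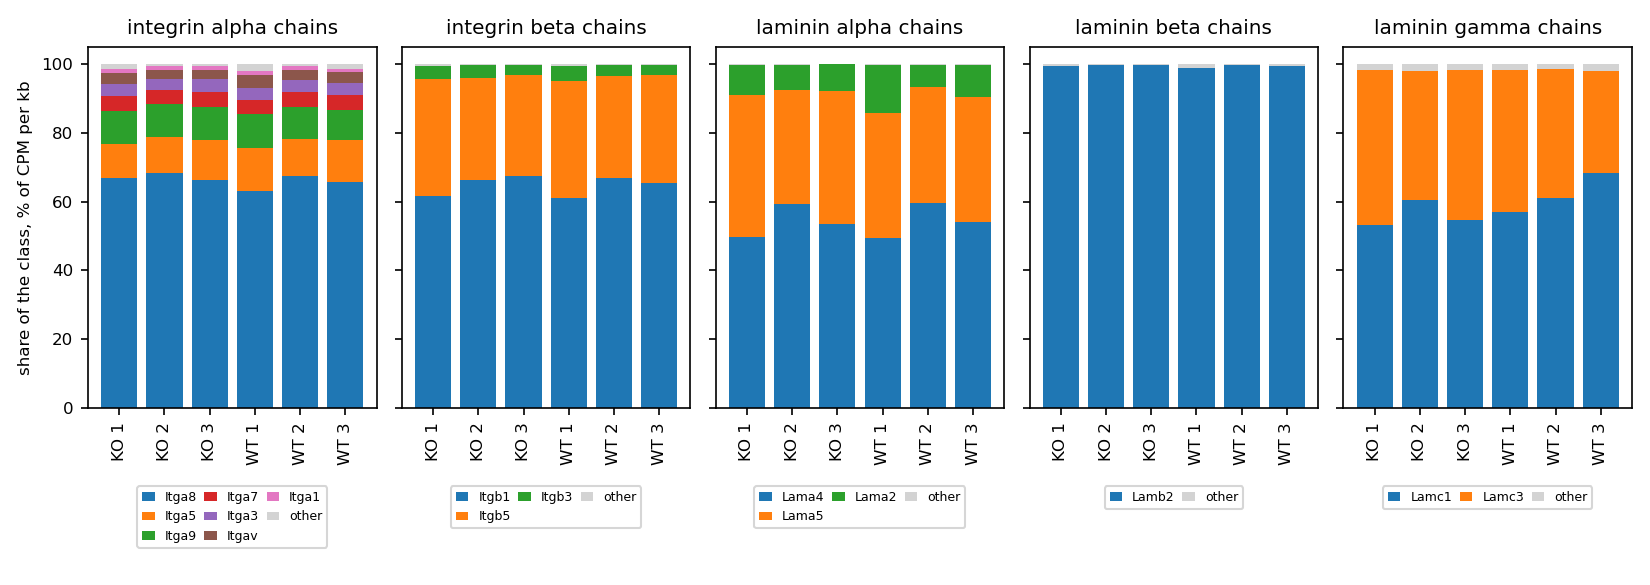
Share of each chain in its class, in percent of the summed CPM per kilobase of exon, for the 3 knockout and the 3 WT libraries. Itga8, Itgb1 and Lamb2 make up most of their classes in all 6 libraries.

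Among the integrin alpha chains, the group that binds fibronectin and other RGD proteins held the most abundant message. Itga8, a chain of contractile smooth muscle that binds nephronectin and fibronectin, had 4850.4, 5943 and 5381 CPM in knockout and 4023, 5228 and 4512 CPM in WT. The groups overlapped and the log2 fold change was 0.23 ± 0.14 (edgeR adjusted p 0.863). Per kilobase it averaged 732 CPM in knockout and 623 CPM in WT, which is 67.1 ± 1.07% of all integrin alpha chains in knockout and 65.3 ± 2.17% in WT. Itga5, the alpha chain of the main fibronectin receptor, averaged 573 ± 77.9 CPM in knockout and 557 ± 17.2 CPM in WT (SD, n = 3 per genotype). Its log2 fold change was 0.041 ± 0.11, with a 95% interval from -0.23 to 0.31. Itgav, which binds vitronectin and other RGD proteins with several beta partners, had 364, 326 and 303 CPM in knockout and 355, 299 and 305 CPM in WT, and the groups overlapped almost fully (log2 fold change 0.051 ± 0.10). Itga2b, the platelet chain, ranged over 1.85 to 2.93 CPM, with a log2 fold change of -0.13 ± 0.25.

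Of the laminin-binding chains, Itga7, the main one of muscle, was the most abundant per kilobase. It had 341, 399 and 401 CPM in knockout and 291, 374 and 319 CPM in WT, with 1 knockout library inside the WT range and a log2 fold change of 0.21 ± 0.12 (edgeR adjusted p 0.859). Itga3 averaged 212 ± 22.2 CPM in knockout and 193 ± 24.5 CPM in WT (SD, n = 3 per genotype), a log2 fold change of 0.14 ± 0.12. Itga6, the third laminin-binding chain, was low at 1.26 to 6.08 CPM, with a log2 fold change of -0.16 ± 0.52. Itga9, which binds tenascin and osteopontin, had 737, 884 and 820.1 CPM in knockout and 657, 766 and 623 CPM in WT. Only knockout 1 lay below the highest WT library. Its log2 fold change of 0.25 ± 0.11 had an edgeR adjusted p of 0.838. Itga4, which binds VCAM1 and fibronectin on leukocytes and other cells, had 6.21, 5.39 and 5.13 CPM in knockout and 9.85, 5.89 and 5.29 CPM in WT. It was highest in WT 1, and the log2 fold change of -0.33 ± 0.25 was -0.0033 without that library. The leukocyte marker sum was also highest in WT 1 (28.0 CPM, against 26.6 CPM in knockout 1), as was that of adventitial fibroblast markers. The part of these sums in this was not tested. Cerkl on the opposite strand covers 8.04% of the Itga4 exon bases.

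The collagen-binding chains were led by Itga1, a receptor for basement membrane collagen. It had 199, 275 and 226 CPM in knockout and 209, 236 and 192 CPM in WT, with overlapping groups and a log2 fold change of 0.13 ± 0.14. The other collagen-binding chains were low, and their libraries spread widely within each genotype. Itga2 averaged 5.52 ± 2.71 CPM in knockout and 9.87 ± 6.74 CPM in WT (SD, n = 3 per genotype), a log2 fold change of -0.84 ± 0.62. Without knockout 1 that value was -1.30, and without WT 1 it was -0.24. Itga11, a collagen receptor of fibroblasts, averaged 22.6 ± 12.7 CPM in knockout and 33.9 ± 17.99 CPM in WT (SD, n = 3 per genotype), a log2 fold change of -0.59 ± 0.54 that was -1.12 without knockout 1 and -0.14 without WT 1. Itga10, known from cartilage, averaged 11.6 ± 6.07 CPM in knockout and 11.8 ± 2.89 CPM in WT (SD, n = 3 per genotype), and its log2 fold change was -0.036 ± 0.37. Its level is uncertain, because Gm42957 on the same strand covers 33.5% of its exon bases.

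Among the beta chains, Itgb1 and Itgb5 were the most abundant per kilobase and varied little between libraries. Itgb1, the partner of most alpha chains that bind matrix, had 2561, 2892 and 3213 CPM in knockout and 2638, 2911 and 2802 CPM in WT. The knockout libraries spanned the WT range on both sides, and the log2 fold change was 0.053 ± 0.12, with a 95% interval from -0.23 to 0.33. Itgb5, a partner of Itgav, averaged 1195 ± 51.0 CPM in knockout and 1191 ± 78.2 CPM in WT (SD, n = 3 per genotype), and its highest library was 1.14 times its lowest (log2 fold change 0.0053 ± 0.092). Together with Itgb1 it made up nearly all of the beta class: Itgb1 65.1 ± 3.02% in knockout and 64.4 ± 2.97% in WT, and Itgb5 31.1 ± 2.49% in knockout and 31.7 ± 2.18% in WT. Itgb3, the other main partner of Itgav, averaged 225 ± 10.03 CPM in knockout and 219 ± 50.2 CPM in WT (SD, n = 3 per genotype), with a log2 fold change of 0.043 ± 0.16. Itgb8, which with Itgav activates latent TGF-beta, had 45.9, 17.98 and 19.2 CPM in knockout and 52.1, 26.3 and 31.2 CPM in WT. It was high in knockout 1 and WT 1, the groups overlapped, and the log2 fold change was -0.40 ± 0.44, or -0.98 without knockout 1 and -0.062 without WT 1. Itgb4, the beta chain that pairs with Itga6 in epithelia and Schwann cells, ranged over 2.63 to 14.2 CPM and was highest in knockout 1. Itgb4 had a log2 fold change of 0.20 ± 0.68, and leaving out 1 library in turn gave -1.02 and 0.58 at the extremes.

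Several low chains differed more between libraries of 1 genotype than between genotypes. Itga11, Itgb8 and Lamb1 were each highest in WT 1, then in knockout 1 and then in WT 3. The summed level of 10 adventitial fibroblast markers, all detected, was 5421, 1371 and 1888 CPM in knockout and 6561, 2964 and 5886 CPM in WT, with the same 3 libraries at the top. Itga2 also had those 3 libraries at the top. Without knockout 1, Itgb8, Lamb1, Itga10 and Itgb4, 4 of the 28 chains tested in that fit, were lower in the knockout at an unadjusted edgeR p under 0.05, against 5.57% of all genes tested in it. Itga6, Itga10 and Itgb4 were highest in knockout 1, as was the summed level of 10 Schwann cell markers, 31.7 CPM there against 19.2 to 25.7 CPM in the other 5 libraries. The part of the fibroblast and Schwann cell sums in these values was not tested.

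**Figure D5:**
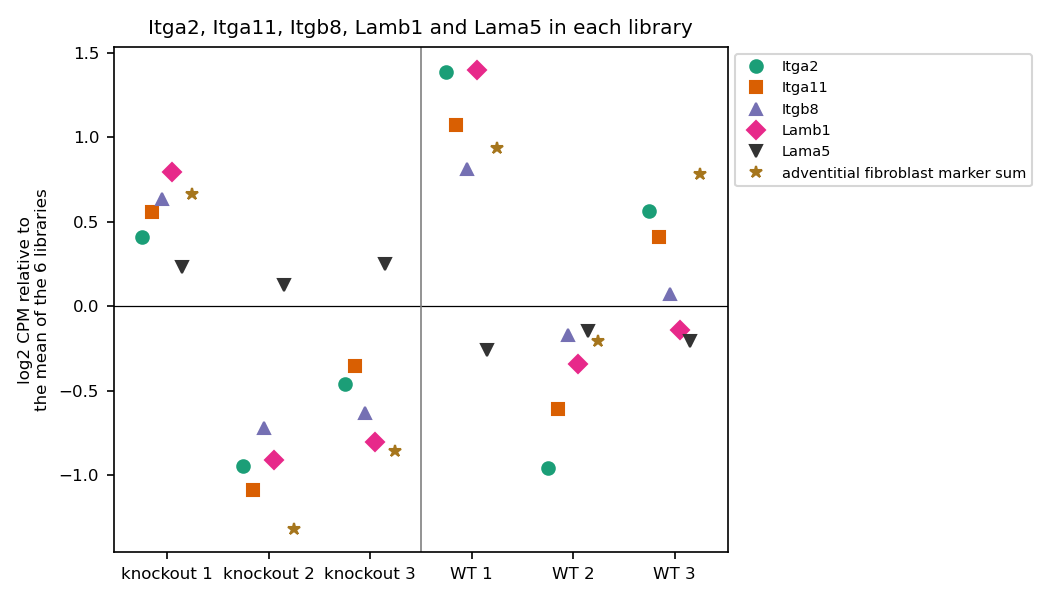
Log2 CPM relative to the mean of the 6 libraries for Itga2, Itga11, Itgb8, Lamb1 and Lama5 and for the adventitial fibroblast marker sum, with the knockout libraries left of the WT libraries. The first 4 genes are above their mean in knockout 1 and WT 1 with the marker sum, while Lama5 is above its mean in the 3 knockout libraries only.

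Chains of leukocytes were near 0. Itgae, Itgal, Itgam, Itgax, Itgb2 and Itgb7 did not pass the filter, and neither did Lama1, a chain of the embryo, or Lamb3, an epithelial chain. All 8 were under 1 CPM in every library. Itgb2, the beta chain shared by leukocyte integrins, had 23, 7 and 10 estimated counts in knockout and 21, 0 and 29 in WT. Leukocyte markers summed to 6.16 to 26.6 CPM in knockout and 7.45 to 28.0 CPM in WT over the 14 of 15 found in the table, with S100a8 at 0 in every library and Ncr1 not analysed here. Endothelial markers, 10 of 10 detected, summed to 111 to 120 CPM in knockout and 101 to 116 CPM in WT. Platelet markers (7 of 8 in the table) summed to 2.21 to 3.43 CPM in knockout and 2.36 to 3.9 CPM in WT. Only 1 of them passed the filter, Itga2b, itself an integrin chain followed here. Itga2b alone had 1.85 to 2.39 CPM in knockout and 1.88 to 2.93 CPM in WT. The platelet sum is therefore mostly Itga2b and is no separate measure of platelets. Epithelial markers (6 of 8) summed to 21.6 to 32.1 CPM in knockout and 23.0 to 31.1 CPM in WT. Of 8 adipocyte markers listed, 3 were in the table, Plin4, Fabp4 and Ucp1, and Ucp1 did not pass the filter. These 3 summed to 254 to 300 CPM in knockout and 222 to 242 CPM in WT. The sum separated the genotypes as Lama5 and Lamb2 did, and its part in those differences was not tested. Of the 2 tested markers, 1 had a log2 fold change of 0.32, with every knockout library above every WT library. The other had -0.031, and its groups overlapped.

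The 4 chains with a whole seed match had log2 fold changes on both sides of 0. Itga1 and Itgav, which hold the 8-base match, had log2 fold changes of 0.13 and 0.051, while Itga4 and Itgb8, which hold the 7-base match, had -0.33 and -0.40. In all 4 the libraries of the genotypes overlapped. Over the tested genes with an annotated 3′ UTR, the median log2 fold change was 0.047 for the 1115 with the 7-base match and -0.0057 for the 12108 without it. It was 0.092 for the 319 with the 8-base match and -0.0039 for the 12904 without that one. Lama5, Lamb2 and Lamc1, whose genotypes did not overlap, hold no match in the annotated 3′ UTR.

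Other genes that act with these chains were read from 4 lists. Over all genes tested, 49.4% had a log2 fold change above 0. Of 17 tested basement membrane partners, such as the collagens and nidogens that laminin sheets bind, 8 had log2 fold changes above 0 and 9 below, with a median of -0.044. At an unadjusted edgeR p under 0.05, 1 was higher and 0 were lower, beside 3.95% and 2.01% of all genes tested. This was Hspg2, perlecan, the large proteoglycan of basement membranes, with 618, 560.3 and 631 CPM in knockout and 460.4, 495 and 449.5 CPM in WT. Its groups did not overlap, and the log2 fold change was 0.37 ± 0.084 (adjusted p 0.735 by edgeR and 0.00676 by DESeq2). Of 21 tested genes of dystroglycan and other laminin receptors, 15 were above 0 and 6 below, with a median of 0.077. Here 1 was higher and 0 were lower at an unadjusted edgeR p under 0.05, beside 3.95% and 2.01% of all genes tested. The higher gene was Utrn, utrophin, which ties dystroglycan to actin. It had 248, 269 and 205 CPM in knockout and 199, 199 and 183 CPM in WT, without overlap, and a log2 fold change of 0.31 ± 0.11 (edgeR adjusted p 0.800).

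The integrin adhesion complex holds the proteins that tie integrin tails to actin. Of its 28 tested genes, 21 were above 0 and 7 below, with a median of 0.14, beside 49.4% of all genes above 0. At an unadjusted edgeR p under 0.05, 5 were higher and 0 were lower, beside 3.95% and 2.01% of all genes tested. The 10 smooth muscle markers lay the same way: 9 were above 0 and 1 below, with a median of 0.15. Of these markers, 1 was higher and 0 were lower at that threshold. Their part in the values of the adhesion complex was not tested. Tln1, talin, which switches integrins to their active form, had 903, 974.7 and 959 CPM in knockout and 611, 764 and 681 CPM in WT. Every knockout library lay above every WT library, and the log2 fold change was 0.46 ± 0.10 (adjusted p 0.693 by edgeR and 0.00460 by DESeq2). Flna, filamin, an actin cross-linker, had 9576, 11757 and 11138 CPM in knockout and 6787, 9617 and 8048 CPM in WT, so knockout 1 lay just below WT 2. Its log2 fold change was 0.41 ± 0.17. The other 3 were Tns1 (0.27 ± 0.11), Lims1 (0.16 ± 0.065) and Itgb1bp2 (1.35 ± 0.51), the last at under 1 CPM in every library. Of 20 tested integrin ligands outside the basement membrane, 8 were above 0 and 12 below, with a median of -0.060. None was higher and 1 was lower at an unadjusted edgeR p under 0.05, beside 3.95% and 2.01% of all genes tested. This was Edil3, an RGD ligand of integrins with Itgav, with 2.36, 0.503 and 0.695 CPM in knockout and 4.66, 3.56 and 5.43 CPM in WT. Its log2 fold change was -1.97 ± 0.57 (adjusted p 0.780 by edgeR and 0.0468 by DESeq2).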

How the data were processed

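The table the authors deposited holds estimated counts, without normalization, by gene for the 6 libraries. Per the labels' protocols, RNA was taken up in Trizol and 1 ug of total RNA went into Illumina TruSeq RNA libraries. The submitters' processing notes name mm10, STAR 2.6 and DESeq2 without saying what each was used for, and neither the tool for counting nor its annotation is given in the sources used here. Estimated counts share reads among similar genes. They were rounded for the count tests, and CPM come from the unrounded values. Genes were kept by filterByExpr, scaled by TMM and tested by the two-sided robust quasi-likelihood test of edgeR 4.0.16 in R 4.3.3, with Benjamini-Hochberg adjustment over all 16654 genes and a threshold of 0.05. SE is the log2 fold change divided by the root of its F statistic. The median SE over all genes was 0.136. Libraries of a genotype differed by more than counting noise: the chi-square averaged 31.2 to 109 per gene. The test was tried on counts simulated from the means, spread and library sizes of these data. At an adjusted p under 0.05 it recovered 20.9% of genes changed 1.5-fold, 56.7% at 2-fold and 89.4% at 4-fold. It made 5 false calls. Smaller differences, such as that of Lama5, were not simulated. Exon lengths and 3′ UTRs came from GENCODE M21 (GRCm38), with the longest UTR used. The 35 genes and all lists were chosen with earlier results of these data known. Every library's value is given for genes with an unadjusted p under 0.05, without overlap between genotypes, leading their role per kilobase, or with a seed match, and for a few low genes chosen after their values were seen. The values of 1 gene that this rule names are not reported here. From the other lists, genes with an unadjusted p under 0.05 are named. Alternatives were other scalings, filters and tools (DESeq2 1.42.0, limma 3.58.1), 1 surrogate variable (sva 3.50.0), a replicate block and each library left out.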

Additional observations from a re-analysis of the deposited data

How the results depend on the processing

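Lama5 kept its direction and an unadjusted p under 0.05 under every one of the 14 alternatives. DESeq2 turned its call, with an adjusted p of 9.00e-05 (0.440 in the fit reported), and its adjusted p stayed above 0.05 in the edgeR and limma-voom fits. Lamb2 lost its unadjusted p under 0.05 with upper-quartile factors, with no low-count filter and without any 1 library. The number of integrin and laminin genes higher in the knockout at an unadjusted p under 0.05, 2 in the fit reported, was 1 with upper-quartile factors, 1 with no low-count filter, 4 with DESeq2, 4 with limma-voom and sample weights, 6 with 1 surrogate variable and 1 to 4 when a library was left out. The share of all genes higher at that threshold was 2.45% to 7.14% over the 14 alternatives. The number lower was 0 to 4 when a library was left out, with 4 (Itga10, Itgb4, Itgb8 and Lamb1) without knockout 1, where 5.57% of all genes were lower.

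The labels do not state whether the replicate number pairs the libraries. Same-numbered libraries deviated from their group means with correlations of 0.289, 0.317 and -0.026. No differently numbered libraries are set beside these values, so they do not settle whether the libraries were paired. With the replicate block, 7 of the 27 genes were higher at an unadjusted p under 0.05 (Itga7, Itga8, Itga9, Lama4, Lama5, Lamb2 and Lamc3), beside 7.14% of all genes, and 4 were lower (Itga2, Itga11, Itgb8 and Lamb1), beside 5.51%. Over all genes, 1 was lower at an adjusted p under 0.05 with the replicate block, 63 were higher and 12 lower with DESeq2, and 0 to 1 were lower when a library was left out. With the replicate block the log2 fold change of Itgb4 was -0.22, and with limma-voom it was -0.82. With 1 surrogate variable the values that changed sign were Itga10 0.13, Itga2b 0.034, Itga5 -0.032, Itgb1 -0.0042 and Lama3 0.054, while Itga2 was -0.18 and Itga11 -0.11. With upper-quartile factors they were Itgb5 -0.0076 and Lama2 -0.0015. When a library was left out, log2 fold changes took both signs for Itga1 (-0.0021 to 0.23), Itga10 (-0.55 to 0.20), Itga2b (-0.26 to 0.11), Itga5 (-0.031 to 0.14), Itga6 (-0.75 to 0.26), Itgav (-0.027 to 0.13), Itgb1 (-0.030 to 0.13), Itgb3 (-0.092 to 0.24), Itgb4 (-1.02 to 0.58), Itgb5 (-0.039 to 0.058), Lama2 (-0.18 to 0.27), Lama3 (-0.42 to 0.40) and Lamb1 (-1.38 to 0.15). None of these genes passed the adjusted threshold in the fit reported, and the cause of the changes was not tested. With 3 libraries a genotype, the exact two-sided permutation test of a single value cannot go below 0.1.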
